A study of Homo sapiens with 12 samples.

Results

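The genes that encode the proteins of the cytosolic ribosome were examined in HK-2 cells, an immortalized line of the human renal proximal tubule, after treatment with iohexol, cisplatin or vancomycin. They were the protein-coding genes whose symbols hold RPL or RPS followed by a number, with RPLP for the stalk proteins and A, X or L as the permitted endings. This gave 83 of the 58735 genes counted, 52 of the large subunit (RPL) and 31 of the small subunit (RPS), by a rule on symbols alone. With vancomycin 65 of the 81 genes that could be tested were higher than in the controls (29.0% of all genes tested), and with iohexol 61 were lower (9.77% of all genes). With cisplatin 12 were higher (29.2%) and 31 lower (30.6%), but 34 were higher and 8 lower when library size alone set the scale. RPS23 had the largest rise, with vancomycin, and RPL3 the largest fall, with cisplatin.

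The study sequenced poly(A)-selected RNA of 12 HK-2 samples in 4 groups of 3. The control group received water, and the other groups received 75 mg I/mL of iohexol, an iodinated contrast medium, 5 μM of cisplatin, a platinum drug used against tumors, or 4 mM of vancomycin, a glycopeptide antibiotic, each for 48 h. All groups are the same cell line, kept in DMEM/F12 with fetal bovine serum and antibiotics. Nothing in the labels says whether the samples of a group came from separate cultures, so the p-values measure the spread between these samples, which may be technical.

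Ribosomal proteins assemble with ribosomal RNA into the small subunit, which reads the mRNA, and the large subunit, which joins the amino acids. Their mRNAs are among the most abundant of a cell, and most begin with a C followed by an unbroken run of pyrimidines, the 5′ terminal oligopyrimidine (TOP) motif, through which mTORC1 signalling controls their translation. Proximal tubule cells take up many drugs, and damage to the nucleolus, where ribosomes are built, is known to release free ribosomal proteins.

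The 5′ ends are shown for the members on which the results turn, since the TOP motif is the sequence feature these genes are known to share. Each line gives 15 bases before and 15 bases from the transcription start in the RefSeq table (GRCh38.p14), 5′ to 3′ on the strand of the gene. Capitals mark the run found by the search, a C followed by at least 4 bases that are each C or T, starting within 10 bases of that start.
RPS23, chr5:82278340-82278369, minus strand: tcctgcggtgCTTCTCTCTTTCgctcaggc
RPL41, chr12:56116618-56116647, plus strand: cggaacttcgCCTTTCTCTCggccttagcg
RPS27, chr1:153990747-153990776, plus strand: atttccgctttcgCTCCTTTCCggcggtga
RPL3, chr22:39319609-39319638, minus strand: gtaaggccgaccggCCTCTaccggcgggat
RPS12, chr6:132814554-132814583, plus strand: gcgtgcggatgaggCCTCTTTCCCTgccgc
RPL26, chr17:8383179-8383208, minus strand: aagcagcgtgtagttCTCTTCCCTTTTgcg
RPL7L1, chr6:42879601-42879630, plus strand: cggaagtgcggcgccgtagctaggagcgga
RPS27L, chr15:63157463-63157492, minus strand: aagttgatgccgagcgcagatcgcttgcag
RPS23, RPL41 and RPS27 had large rises with vancomycin, RPL3 the largest fall with cisplatin and RPS12 the largest fall with iohexol, and RPL26 and RPL7L1 were the members that fell with vancomycin. RPL7L1 and RPS27L are close copies of RPL7 and RPS27, and neither held a run. The table held a start for 66 of the 83 members, and 55 of them (83.3%) held a run, against 33.5% of all 35116 promoters in the table, which is a match of letters on the sense strand and not a measured TOP mRNA. Of the 5 close copies with an entry 1 held a run, against 54 of the other 61 members.

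Total counts per sample were 14057282 to 18177109, at which 3 counts corresponded to 0.177 to 0.218 CPM (the count on the usual library scale, with the total multiplied by its TMM factor), a floor for counting error only. The TMM factors, which set the totals of the samples on a common scale, ran from 0.961 to 0.976 for the controls and from 1.02 to 1.04 for iohexol. For cisplatin the range was 1.12 to 1.13, and for vancomycin 0.885 to 0.897. Control replicate 1 and iohexol replicate 3 stood apart, since their deviations from the group mean fell with the GC content of the coding sequence (r = -0.43 and -0.57 across 13521 protein-coding genes, against 0.18 to 0.38 in the other samples of these groups). The results of the members with iohexol are therefore given with and without these libraries. Of 13 markers of the renal epithelium 9 were over 1 CPM in every control sample, while LRP2, a receptor of the mature proximal tubule, was at 0 in all of them. Summed over these markers, the control samples had 1965 to 2122 CPM, the iohexol samples 1518 to 1777, the cisplatin samples 1694 to 1755 and the vancomycin samples 2462 to 2524. Single markers moved in opposite directions, with 4 higher and 3 lower of the 10 tested with iohexol, 3 and 5 of 9 with cisplatin and 5 and 3 of 11 with vancomycin. With cisplatin the mean of CDH6, a cadherin, was 64.1 CPM against 520 in the controls and that of PAX8, a renal transcription factor, 132 against 372, while the keratin KRT8 had 844.0 against 493 CPM. PAX2 had a mean of 1.48 CPM in the controls and 0.0205 with vancomycin. The summed fibroblast markers were 25.8 to 34.9, 22.3 to 25.5, 47.1 to 52.5 and 41.2 to 44.7 CPM in the same order, with COL1A2 and PDGFRA at 0 in the control and vancomycin samples, and the part of either list in the results was not tested. The leukocyte and erythroid markers summed to at most 0.405 CPM in any sample and the endothelial markers to at most 4.22 CPM.

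In the controls, RPS12 had the highest level per kb of merged exons, 800.1 ± 42.5 CPM per kb (SD, n = 3), followed by RPL8 with 603 ± 76.7 and RPL7A with 464 ± 38.0. This order depends on the length taken, since the merged exons of RPS12, 767 bases, were the shortest of the members tested (median 3002). Without division by length its control mean was 614 CPM, below the 1589 CPM of RPLP0. The median of the 81 members tested was 115.6 CPM per kb, and 8 members were under 10. RPL3L, known from muscle, and RPL10L, known from testis, had 1 to 10 and 0 to 2 counts per sample and were not tested. RPS10 was the lowest of the members tested, with 0.891 ± 0.133 CPM per kb, and its coding sequence lies to 92.1% under exons of the read-through gene RPS10-NUDT3.

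Of all counts, the members together held 3.32% to 3.53% in the controls. The share was 2.31% to 2.84% in the iohexol samples, 3.48% to 3.64% in the cisplatin samples and 5.24% to 6.08% in the vancomycin samples. Every vancomycin sample lay above and every iohexol sample below the control samples, and the cisplatin samples overlapped them. On the TMM scale the sums were 3.40% to 3.68%, 2.27% to 2.76%, 3.09% to 3.24% and 5.84% to 6.87% of the summed CPM in the same order, so the cisplatin samples lay below the control samples on this scale. The mitochondrially encoded genes held 5.03% to 5.73%, 5.27% to 6.20%, 5.36% to 5.49% and 4.14% to 4.39% of the counts in that order. The group mean was highest with vancomycin for 70 of the 81 members and lowest with iohexol for 72. Of all 17073 genes in the fit of all samples, 33.0% were highest with vancomycin and 19.7% lowest with iohexol. In bulk RNA, fewer cells and less RNA per cell cannot be told apart, and all values are relative to the RNA of the sample.

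**Figure D1:**
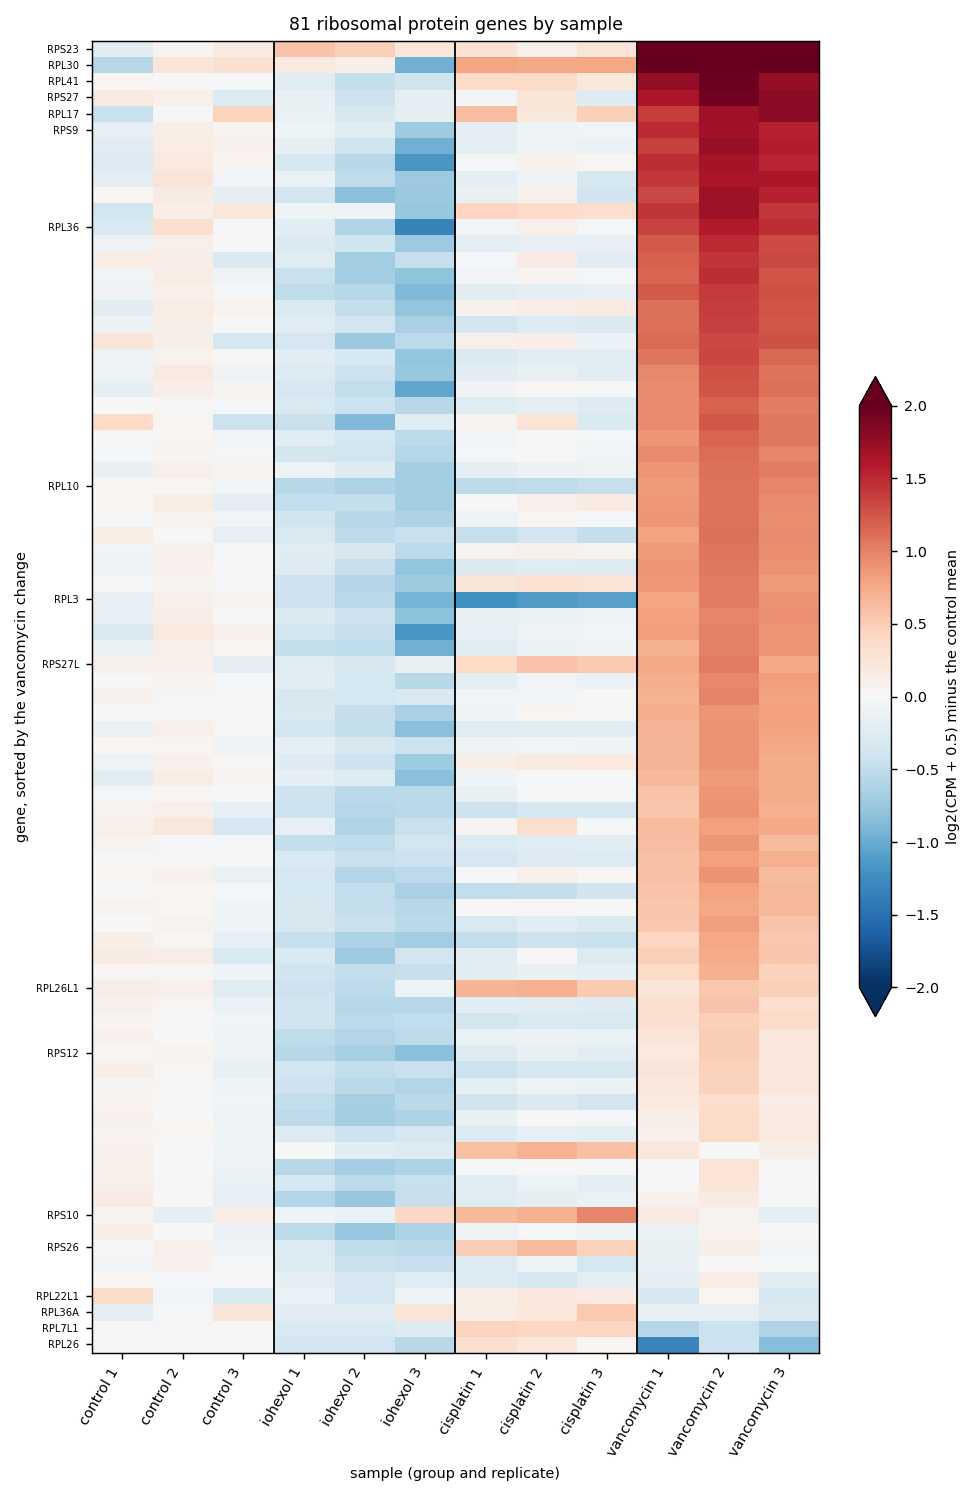
Heat map of the 81 members tested (rows, with a selection labelled) in the 12 samples (columns), as the log2 CPM on the TMM scale minus the mean of the 3 control samples. The vancomycin columns are above the controls for most members and the iohexol columns below them, while the cisplatin columns lie close to the controls, on a side that depends on the scaling (median log2 fold change -0.08 with TMM, 0.14 with library size only).

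With vancomycin the members rose as a group. Of the 81 tested, 65 were higher and 2 lower, where 29.0% of all 15819 genes tested were higher and 28.8% lower. The median log2 fold change of the members was 0.79, and that of all genes tested was -0.01. At a log2 fold change over 1, 24 members were higher (10.8% of all genes) and 0 lower (7.65% of all genes). Higher were 40 of 50 RPL and 25 of 31 RPS genes. Without vancomycin replicate 2, 4 members were lower, and without control replicate 3, 3.

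RPS23 (ENSG00000186468, chr5:82273358-82278577, minus strand), a protein of the decoding centre of the small subunit, had the largest rise. It had 5478, 5914 and 5673 counts in the vancomycin samples and 167 to 314 counts in the other 9 samples. This was 343, 399 and 349 CPM with vancomycin, 12.1, 14.9 and 16.1 in the controls, 21.5, 20.1 and 16.7 with iohexol and 17.5, 15.4 and 17.1 with cisplatin. The vancomycin samples stood far above all others, and none overlapped them. The log2 fold change was 4.62 ± 0.11 (edgeR adjusted p = 1.60e-19), a 24.5-fold rise. In the controls RPS23 had a level of 3.42 ± 0.486 CPM per kb, far under the median of the members, and 86.5 ± 7.35 with vancomycin. Exons of ATG10 on the opposite strand cover 54.1% of its coding bases, and ATG10 had 96 to 107 counts with vancomycin against 111 to 126 in the controls. The processed copy RPS23P8 had 20 to 21 counts with vancomycin and 11 to 26 in the controls. Whether the counting used strand is not given in the sources used here, and the part of the overlap in the RPS23 values was not tested.

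The other leading rises came from both subunits. RPL30 (chr8:98024851-98046469, minus strand), a large subunit protein, had 319.5, 377 and 334 CPM with vancomycin and 39.8, 70.1 and 74.0 in the controls. All vancomycin samples lay above the controls, of which replicate 1, a library that stood apart, was the lowest. The log2 fold change was 2.44 ± 0.14 (adjusted p = 8.10e-13). Exons of an antisense gene, AP003352.1, cover 51.6% of its coding bases, with 14 to 27 counts against 11 to 14 in the controls. RPL41 (chr12:56116586-56117943, plus strand) encodes the smallest ribosomal protein, from a coding sequence of 75 bases. It had 841, 968 and 840.3 CPM with vancomycin against 256, 251 and 242 in the controls, with no overlap and a log2 fold change of 1.78 ± 0.09 (adjusted p = 3.26e-14). RPS27 (chr1:153990755-153992155, plus strand), a zinc finger protein of the small subunit, had 473, 587 and 531 CPM against 174, 165 and 127. Its groups did not overlap either, and its log2 fold change was 1.73 ± 0.11 (adjusted p = 2.38e-12). RPL17 (chr18:49488453-49492523, minus strand), which lines the exit tunnel for the new protein, had 13.6, 17.0 and 18.4 CPM against 3.48, 4.89 and 6.84. Its log2 fold change was 1.64 ± 0.19 (adjusted p = 8.34e-08), and 100% of its coding bases lie under exons of other genes, among them the read-through gene RPL17-C18orf32.

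RPL26 and RPL7L1 were the members that fell with vancomycin. RPL26 (chr17:8377516-8383250, minus strand), a large subunit protein near the exit tunnel, had 17.1, 32.1 and 24.0 CPM with vancomycin and 43.6, 43.5 and 43.9 in the controls. The vancomycin samples differed among themselves but all lay below the controls, and the log2 fold change was -0.89 ± 0.15 (adjusted p = 1.43e-05). Exons of AC135178.2 on the same strand cover 71.0% of its coding bases, and that gene had 0 to 1 counts per sample. The processed copy RPL26P19 went the opposite way, with 151 to 181 counts with vancomycin against 50 to 106 in the controls (log2 fold change 1.00, adjusted p = 0.000483). RPL7L1 (chr6:42879618-42889925, plus strand), a copy of RPL7 known from the building of the large subunit, had 151, 166 and 148 CPM against 227, 222 and 227. Its groups did not overlap, with a log2 fold change of -0.58 ± 0.08 (adjusted p = 2.94e-06). The other 14 members tested did not pass the test. Among them were RPL4, RPL9, RPL21, RPL22, RPL22L1, RPL27, RPL36A, RPL39L, RPS10, RPS20, RPS24, RPS26 and RPS27A.

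**Figure D2:**
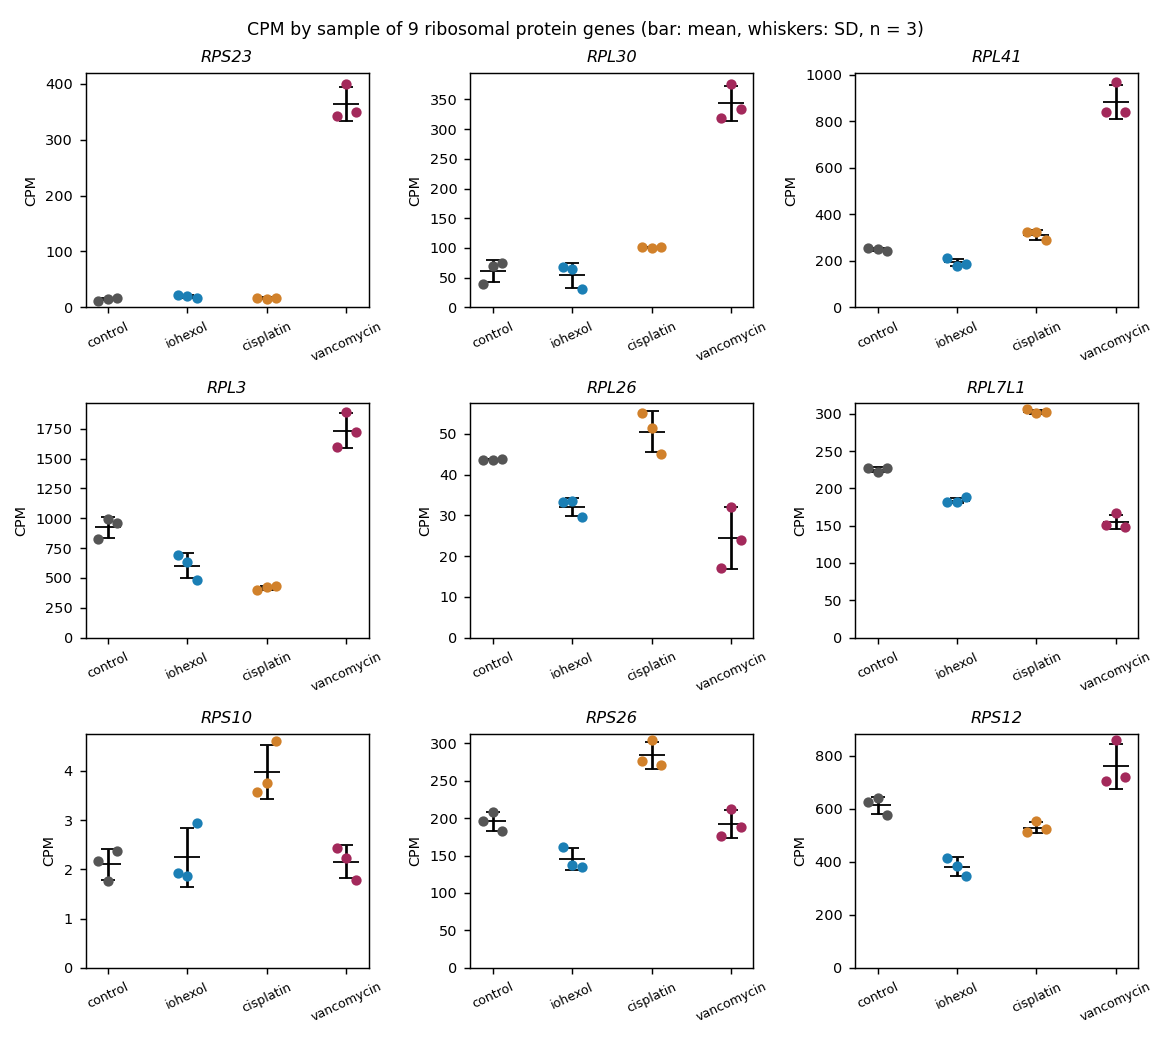
CPM on the TMM scale of 9 members in each of the 12 samples (points), with the mean and SD of each group of 3 samples. RPS23 is at 343 to 399 CPM with vancomycin and at most 21.5 elsewhere, and RPL3 is lowest with cisplatin, at 397 to 434 CPM, and highest with vancomycin.

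With iohexol the members fell as a group, and none changed by an absolute log2 fold change over 1. Of the 81 tested, 61 were lower (9.77% of all 15657 genes tested) and 1 was higher (11.2% of all genes). At the fold limit 0 were lower and 0 higher, where 1.25% and 4.02% of all genes passed. The median log2 fold change was -0.44 for the members and 0.01 for all genes, and 79 of the 81 members had a negative value. Lower were 39 of 50 RPL and 22 of 31 RPS genes. With the libraries low in GC-rich genes left out, an alternative chosen after the data were seen, 72 members were lower and the median was -0.39. The count was smaller without control replicate 2, with 35 members lower and a median of -0.43, than without any other sample, where it was 50 to 67.

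RPS12 (chr6:132814441-132817564, plus strand), a small subunit protein, had the largest fall. It had 415, 386 and 345 CPM with iohexol and 624, 639.6 and 577 in the controls, without overlap. The log2 fold change was -0.67 ± 0.09 (adjusted p = 0.000338). RPL38, a large subunit protein known from the translation of Hox mRNAs, had 84.4, 62.1 and 65.8 CPM against 113, 124 and 96.5 (log2 fold change -0.64 ± 0.13, adjusted p = 0.00475). RPS18, a small subunit protein often taken as a reference gene, had 448, 428 and 345 CPM against 609, 681 and 621 (log2 fold change -0.63 ± 0.10, adjusted p = 0.00130). Neither gene overlapped the controls. RPL35, which sits at the exit tunnel, had 408, 346 and 227 CPM against 426, 579 and 528 (log2 fold change -0.63 ± 0.18). In both groups its lowest value was in the library that stood apart. It passed the test (adjusted p = 0.0273) but not without control replicate 2 or control replicate 3, with an adjusted p of 0.0604 to 0.0872. RPL35A, mutated in some patients with Diamond-Blackfan anaemia, had 238, 199 and 184 CPM against 311, 359 and 299 (log2 fold change -0.62 ± 0.11, adjusted p = 0.00188), again without overlap. RPS23 was the member called higher, with 21.5, 20.1 and 16.7 CPM against 12.1, 14.9 and 16.1 and a log2 fold change of 0.45 ± 0.15 (adjusted p = 0.0492). This call lies at the threshold and was lost without control replicate 1, control replicate 2, control replicate 3, iohexol replicate 1 or iohexol replicate 2, with an adjusted p of 0.0598 to 0.170.

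Without the 2 libraries low in GC-rich genes, the iohexol log2 fold changes were -0.59 for RPS12, -0.58 for RPL38, -0.56 for RPS18, -0.54 for RPL35 and -0.57 for RPL35A. RPS23 was at 0.44 (edgeR adjusted p = 0.00639). Of the members with further roles or close copies, RPLP0 was at -0.42, RPLP1 at -0.28, RPLP2 at -0.49, RPL5 at -0.41, RPL11 at -0.49, RPS6 at -0.46, RPS27A at -0.55 and RPL13A at -0.30. RPL7 was at -0.49, RPL7L1 at -0.29, RPL26 at -0.37, RPL39 at -0.41 and RPL39L at -0.38. Each of these members passed the test in this fit, as it did with all samples. RPL22L1 (-0.04, adjusted p = 0.808), RPS27 (-0.18, adjusted p = 0.117) and RPS27L (-0.23, adjusted p = 0.0986) passed in neither fit. RPL26L1 passed as lower in this fit (-0.41, adjusted p = 0.0204) and not with all samples (-0.34, adjusted p = 0.140).

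With cisplatin the members changed in both directions. Of the 81 tested, 12 were higher (29.2% of all 15876 genes tested) and 31 lower (30.6% of all genes). At the fold limit 0 were higher (7.62% of all genes) and 1 was lower (8.72% of all genes), or 2 without control replicate 3. The median log2 fold change was -0.08 for the members and 0.01 for all genes. Leaving out each sample in turn gave 10 to 13 members higher and 23 to 42 lower. The split of higher and lower members also depends on the scaling. With library size only, 34 members were higher and 8 lower, with medians of 0.14 for the members and 0.23 for all genes, so that the members stood 0.09 below all genes in both scalings. This distance moved when samples or filters changed. It was 0.15 without control replicate 3, 0.14 without cisplatin replicate 2, 0.20 without a filter and 0.05 with at least 10 counts in every sample.

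RPL3 (ENSG00000100316, chr22:39312882-39320389, minus strand), a core protein near the peptidyl transferase centre, was the member past the fold limit. It had 397, 420.3 and 434 CPM with cisplatin and 823, 992 and 958 in the controls. The groups did not overlap, and the log2 fold change was -1.15 ± 0.07 (adjusted p = 9.58e-11). Its processed copy RPL3P4 had a log2 fold change of -1.26, and 154 to 239 counts against 384 to 494. RPL10, which joins the large subunit late in its assembly, had 574, 578 and 597 CPM against 839.9, 834 and 791 (log2 fold change -0.50 ± 0.05, adjusted p = 2.91e-07). RPL10A, of the L1 stalk, had 262, 265 and 280.2 CPM against 370.1, 379 and 358 (log2 fold change -0.46 ± 0.06, adjusted p = 1.91e-06). In both genes every cisplatin sample lay below every control sample. RPL34, of the large subunit, had 190.1, 199.5 and 196 CPM against 289, 275 and 239 (log2 fold change -0.46 ± 0.07). RPL31, of the rim of the exit tunnel, had 278, 296 and 276 CPM against 428, 388 and 342 (log2 fold change -0.45 ± 0.07). Both passed the test (adjusted p = 2.18e-05 and 4.18e-05) without overlap of the groups.

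RPS10, RPL30, RPL26L1 and RPS26 were among the 5 members with the largest rises with cisplatin. RPS10 (chr6:34417454-34426125, minus strand), of the small subunit near the entry of the mRNA, had 59, 61 and 78 counts with cisplatin and 30, 28 and 36 in the controls. This was 3.58, 3.76 and 4.61 against 2.18, 1.76 and 2.37 CPM, without overlap, and a log2 fold change of 0.92 ± 0.23 (adjusted p = 0.00236). The read-through gene RPS10-NUDT3 had 0 counts in every sample. RPL30 had 102, 100 and 101 CPM against 39.8, 70.1 and 74.0 (log2 fold change 0.72 ± 0.14, adjusted p = 0.000287), and its antisense gene AP003352.1 had 23 to 48 counts against 11 to 14. The cisplatin samples of RPL30 lay above the controls. RPL26L1, the copy of RPL26, had 33.1, 33.5 and 29.6 CPM against 22.5, 21.9 and 17.1 (log2 fold change 0.64 ± 0.11, adjusted p = 8.19e-05). RPS26, which touches the mRNA upstream of the start codon, had 277, 304 and 270.5 CPM against 196, 209 and 183 (log2 fold change 0.53 ± 0.07, adjusted p = 2.14e-06). In both genes the samples did not overlap the controls.

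**Figure D3:**
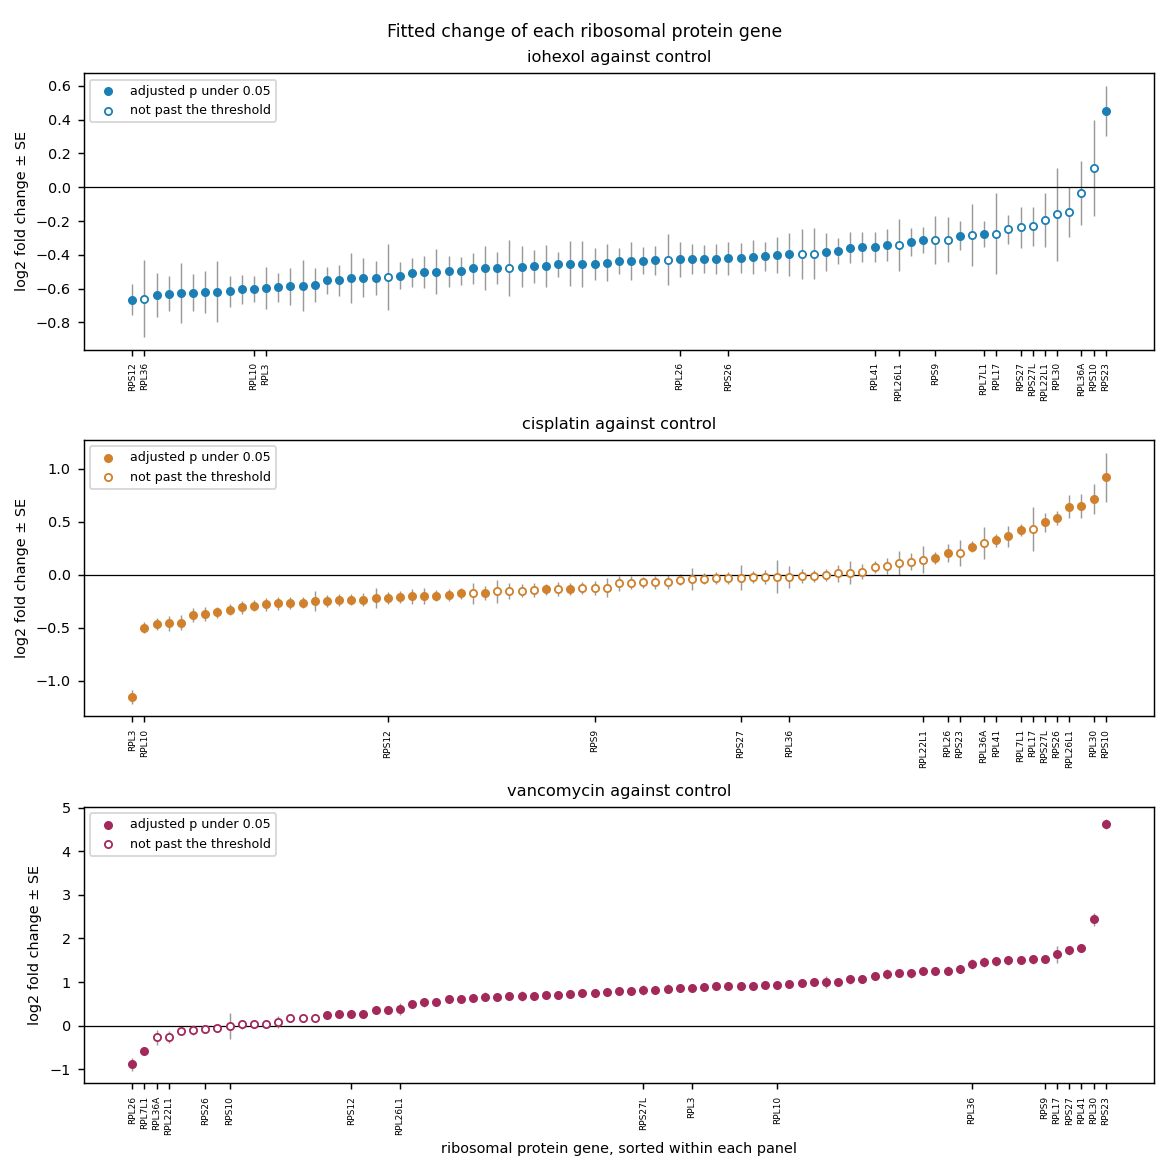
Log2 fold change against the control group of the 81 members tested, with a selection labelled and ranked within each drug, with the SE of the edgeR fit as bars, in a panel for each drug. Most members lie below 0 with iohexol and above 0 with vancomycin, whereas with cisplatin they lie on both sides of 0 and most values move above 0 when library size alone sets the scale (median 0.14 in place of -0.08).

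Members with known further roles were followed whatever their change. The stalk proteins recruit the translation factors. RPLP0 had 1655, 1591 and 1521 CPM in the controls, 1201, 1104 and 1128 with iohexol, 1236, 1283 and 1283 with cisplatin and 1986, 2207 and 2075 with vancomycin. Both iohexol and cisplatin samples lay below the controls and the vancomycin samples above them, with log2 fold changes of -0.46 ± 0.08, -0.33 ± 0.05 and 0.35 ± 0.08 (adjusted p = 0.00132, 2.55e-05 and 0.000664). RPLP1 had log2 fold changes of -0.31 ± 0.08, -0.04 ± 0.06 and 0.79 ± 0.09, and RPLP2 had -0.50 ± 0.13, 0.13 ± 0.08 and 1.20 ± 0.10, in the order iohexol, cisplatin, vancomycin. Both passed the test with iohexol (adjusted p = 0.0145 and 0.0197) and vancomycin (5.25e-08 and 3.47e-10) and not with cisplatin (0.502 and 0.173), where with library size only both passed as higher, RPLP1 at 0.17 (adjusted p = 0.00825) and RPLP2 at 0.34 (adjusted p = 0.00110). With iohexol the call of RPLP1 was lost without control replicate 1, control replicate 2 or iohexol replicate 2, with an adjusted p of 0.0544 to 0.0589 and that of RPLP2 without control replicate 2 or control replicate 3, with an adjusted p of 0.0549 to 0.0780.

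RPL5 and RPL11 form the 5S particle that binds MDM2 when ribosome assembly is disturbed. RPL5 had 666, 662 and 617 CPM in the controls, 492, 459 and 469 with iohexol, 559, 584 and 565 with cisplatin and 858, 1056 and 892 with vancomycin. It was lower with iohexol (log2 fold change -0.44 ± 0.08, adjusted p = 0.00206) and cisplatin (-0.19 ± 0.05, adjusted p = 0.00568) and higher with vancomycin (0.48 ± 0.09, adjusted p = 5.17e-05), although its cisplatin value turned to 0.029 with library size only and no longer passed (adjusted p = 0.640). RPL11 had 354, 437 and 415 CPM in the controls, 316, 283 and 196 with iohexol, 382, 407 and 402 with cisplatin and 771, 959.8 and 858 with vancomycin. Its iohexol samples lay below and its vancomycin samples above the controls, and its cisplatin samples lay within them. The log2 fold changes were -0.58 ± 0.15 with iohexol (adjusted p = 0.0182), -0.02 ± 0.07 with cisplatin (adjusted p = 0.816, and 0.20 with library size only, adjusted p = 0.0171) and 1.06 ± 0.09 with vancomycin (adjusted p = 1.33e-09). The iohexol call was lost without control replicate 2, with an adjusted p of 0.0590, and RPL11 passed the test with cisplatin without control replicate 1, with an adjusted p of 0.0261.

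RPS6, the substrate of the S6 kinases, was lower with iohexol (log2 fold change -0.50 ± 0.09, adjusted p = 0.00254) and cisplatin (-0.37 ± 0.07, adjusted p = 0.000132) and higher with vancomycin (0.68 ± 0.10, adjusted p = 1.58e-06). RPS27A, which is made as a fusion with ubiquitin, had 666, 620.2 and 577 CPM in the controls and 420.2, 387 and 405 with iohexol (log2 fold change -0.60 ± 0.08, adjusted p = 0.000380). It had 603, 623 and 612 CPM with cisplatin and 602, 750.5 and 630.5 with vancomycin, values that overlapped the controls, with log2 fold changes of -0.02 ± 0.06 and 0.05 ± 0.09 whose signs turn with library size only (0.20, which passed with an adjusted p of 0.00516, and -0.030). RPL13A and RPS18 are often used as reference genes for quantitative PCR. RPL13A had 836, 944 and 912 CPM in the controls, 773, 722 and 524 with iohexol, 731, 763 and 756 with cisplatin and 1879, 2252 and 1991 with vancomycin. The vancomycin samples were well above all others, and the log2 fold changes were -0.40 ± 0.13 (adjusted p = 0.0442, lost without control replicate 2, control replicate 3 or iohexol replicate 2, with an adjusted p of 0.0539 to 0.123), -0.26 ± 0.05 (adjusted p = 0.000506) and 1.14 ± 0.09 (adjusted p = 7.36e-11). RPS18 had log2 fold changes of -0.19 ± 0.06 with cisplatin (adjusted p = 0.00590, and 0.024 with library size only, adjusted p = 0.707) and 1.26 ± 0.08 with vancomycin (adjusted p = 8.99e-12), beside its fall with iohexol. With library size only the cisplatin calls of RPL13A (adjusted p = 0.503), RPL22 (0.491), RPL39L (0.809) and RPLP0 (0.0515) were lost.

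The comparisons with the control group share the control samples, so the drugs were also compared directly in a fit of all 12 samples. Against iohexol, 74 members were higher with vancomycin and 2 lower (29.0% and 27.6% of all 17073 genes), with a median log2 difference of 1.24. Those lower were RPL26 and RPL7L1. Against cisplatin, 69 were higher with vancomycin and 7 lower (34.7% and 30.0% of all genes), with a median of 0.96. Cisplatin against iohexol gave 59 higher and 1 lower (26.0% and 27.9% of all genes), with a median of 0.38, and the member lower was RPL3. With library size only, an alternative chosen after the data were seen, the counts were 72 and 2, 60 and 10, and 76 and 1 in the same order, and the medians 1.03, 0.63 and 0.51.

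Single members stood out in these contrasts. RPS23 was higher with vancomycin than with cisplatin by 4.45 ± 0.12 on the log2 scale (adjusted p = 1.60e-16) and than with iohexol by 4.23 ± 0.11 (adjusted p = 5.09e-16). RPL3 was higher with vancomycin than with cisplatin by 2.05 ± 0.11 (adjusted p = 2.67e-12), and the difference of cisplatin minus iohexol was -0.53 ± 0.11 (adjusted p = 0.000256). The 7 members lower with vancomycin than with cisplatin included RPL26, RPL7L1, RPL22L1, RPL36A, RPS10 and RPS26. RPL26 differed by -1.05 ± 0.15 (adjusted p = 3.76e-06) and RPL7L1 by -0.96 ± 0.07 (adjusted p = 3.06e-10). RPS26 differed by -0.56 ± 0.09 (adjusted p = 1.70e-05) and RPS10 by -0.89 ± 0.25 (adjusted p = 0.00365). RPS10 was also higher with cisplatin than with iohexol, by 0.83 ± 0.25 (adjusted p = 0.00761). RPL22L1 and RPL36A differed between vancomycin and cisplatin by -0.37 ± 0.14 and -0.53 ± 0.17. RPL36A was named here after its values were seen, and all 7 contrasts passed an adjusted p of 0.05.

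Some core members have a close copy elsewhere in the genome, and the balance within a pair was followed as the share of the copy in the pair, per kb of merged exons. These lengths can differ where coding lengths are alike, with 2513 bases for RPL26 and 1164 for RPL26L1 at 435 coding bases each. The level of a share therefore depends on the length taken. Exons of other genes cover 71.0% of the coding bases of RPL26 and 59.9% of those of RPL22, and their part in the shares was not tested. RPL7L1 was at 10.2% ± 0.552 (SD, n = 3) of its pair with RPL7 in the controls, 11.9% ± 0.299 with iohexol, 14.3% ± 0.213 with cisplatin and 5.94% ± 0.240 with vancomycin. No drug group overlapped the controls, and vancomycin alone lay below them. RPL26L1 was at 50.2% ± 3.90 of its pair with RPL26, then 51.6% ± 5.70, 57.9% ± 1.17 and 71.3% ± 4.35 in the same order. Here the vancomycin samples were the highest, at 66.7% to 75.3%. RPL39L was at 22.7% ± 3.83 of its pair with RPL39, then 24.2% ± 1.84, 19.2% ± 0.898 and 10.6% ± 0.141. The vancomycin samples lay below all others. RPS27L was at 2.58% ± 0.145 of its pair with RPS27, then 2.58% ± 0.163, 3.70% ± 0.588 and 1.39% ± 0.0903, so the cisplatin samples lay above and the vancomycin samples below the controls. RPL22L1 was at 35.6% ± 4.87 of its pair with RPL22, then 36.8% ± 1.24, 42.8% ± 1.62 and 33.6% ± 0.0975. Its control samples spread from 31.2% to 40.8%, which covers the vancomycin samples. An exact two-sided permutation of 3 against 3 samples cannot go below p = 0.1, so these shares are given without a test.

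**Figure D4:**
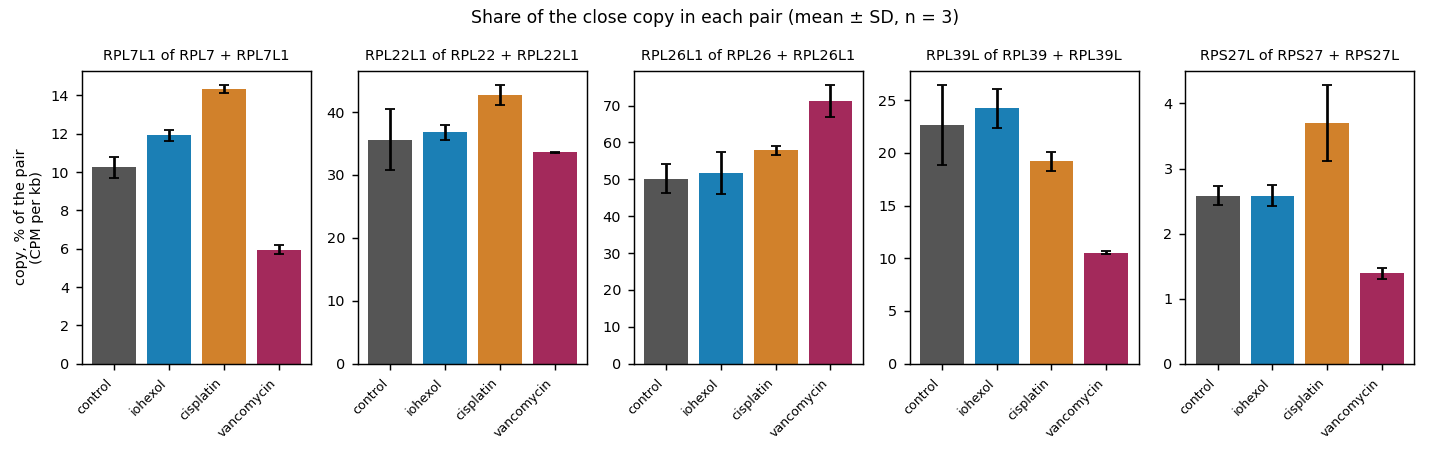
Share of the close copy in its pair with the core gene, in percent of the summed CPM per kb, for 5 pairs, as bars from 0 with the mean and SD of 3 samples in each of the 4 groups. The level of a share depends on the merged exon lengths, which can differ within a pair. With vancomycin the share of RPL7L1, RPL39L and RPS27L is below the controls and that of RPL26L1 above them.

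The members of each pair were also tested singly. RPL7 rose with vancomycin (log2 fold change 0.27 ± 0.09, adjusted p = 0.0103), a call lost without control replicate 3, with an adjusted p of 0.0675, while RPL7L1 fell. With cisplatin RPL7L1 rose (0.42 ± 0.05, adjusted p = 3.44e-06), and RPL7 had -0.13 ± 0.06 (adjusted p = 0.0489, lost without cisplatin replicate 1, cisplatin replicate 2, cisplatin replicate 3 or control replicate 2, with an adjusted p of 0.0887 to 0.139), which turned to 0.088 with library size only. With iohexol RPL7 fell (-0.52 ± 0.08, adjusted p = 0.000676), and RPL7L1 had -0.28 ± 0.08 (adjusted p = 0.0253, lost without control replicate 1, control replicate 2, control replicate 3, iohexol replicate 1 or iohexol replicate 2, with an adjusted p of 0.0712 to 0.0989). RPL26L1 rose with vancomycin (0.38 ± 0.13, adjusted p = 0.0130), a call lost without control replicate 3 or vancomycin replicate 2, with an adjusted p of 0.0582 to 0.117. RPL26 fell with iohexol (-0.43 ± 0.10, adjusted p = 0.0127, lost without control replicate 2, with an adjusted p of 0.0513) and was called higher with cisplatin (0.21 ± 0.08, adjusted p = 0.0403, lost without cisplatin replicate 1, cisplatin replicate 2, control replicate 2 or control replicate 3, with an adjusted p of 0.0781 to 0.226).

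RPL39, a short protein of the exit tunnel, had 444, 505 and 492 CPM with vancomycin against 241, 219 and 158 (log2 fold change 1.18 ± 0.11, adjusted p = 4.36e-09). RPL39L had 26.3, 29.0 and 28.8 against 28.1, 30.9 and 28.5 CPM, which overlap (-0.10 ± 0.11, adjusted p = 0.449). With iohexol RPL39 had -0.54 ± 0.15 (adjusted p = 0.0234, lost without control replicate 1, control replicate 2 or iohexol replicate 2, with an adjusted p of 0.0720 to 0.0909) and RPL39L -0.38 ± 0.11 (adjusted p = 0.0310, lost without control replicate 1, control replicate 2, control replicate 3 or iohexol replicate 2, with an adjusted p of 0.0501 to 0.135). With cisplatin RPL39L was called lower (-0.25 ± 0.10, adjusted p = 0.0353), a call lost without cisplatin replicate 1, cisplatin replicate 3 or control replicate 2, with an adjusted p of 0.105 to 0.165, and with library size only, where its value was -0.029 (adjusted p = 0.809). RPS27L rose with cisplatin (0.50 ± 0.09, adjusted p = 0.000149) and with vancomycin (0.82 ± 0.11, adjusted p = 9.64e-07). RPL22 fell with cisplatin (-0.27 ± 0.06, adjusted p = 0.00144) and did not pass with iohexol (-0.25 ± 0.08, adjusted p = 0.0570) or vancomycin (-0.12 ± 0.10, adjusted p = 0.290). It did pass as lower with iohexol without iohexol replicate 3, with an adjusted p of 0.0329, without the 2 libraries low in GC-rich genes (0.00595), with RLE factors (0.0499) and in the fit of all 12 samples (0.0372). With vancomycin it passed without vancomycin replicate 2, with an adjusted p of 0.0298. RPL22L1, whose control samples were 49.98, 37.0 and 31.2 CPM, passed with no drug, but did with cisplatin without control replicate 1, with an adjusted p of 0.000495 and with vancomycin without control replicate 3 or vancomycin replicate 2, with an adjusted p of 0.0127 to 0.0466. RPL22L1 passed with both under library size only, at 0.36 with cisplatin (adjusted p = 0.0153) and -0.34 with vancomycin (adjusted p = 0.0418).

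The members are short genes, with coding sequences of 75 to 1281 bases and a median of 453, where the other protein-coding genes had a median of 1416. The changes were therefore set beside those of other genes of the same coding length. With vancomycin the 11 members under 300 bases had a median log2 fold change of 1.18, and the 259 other genes of that length 0.40. For 300 to 450 bases the medians were 0.70 for 29 members and 0.35 for the others, and for 450 to 600 bases 0.83 for 19 members and 0.28. For 600 to 900 bases they were 0.70 for 19 members and 0.15, and from 900 bases up 0.35 for 3 members and -0.06. The median of the members was above that of the other genes in each bin. From 900 bases up the other genes had a mean coding length of 2300 bases, longer than any member. With iohexol the medians of the members in these bins were -0.43 to -0.55 and those of the others -0.08 to 0.00. With cisplatin the members had -0.03, -0.03, -0.02, -0.24 and -0.35 and the others 0.16, 0.21, 0.11, 0.06 and -0.09, from the shortest bin to the longest. Across the 81 members Spearman's rho between coding length and log2 fold change was -0.08 with iohexol, -0.37 with cisplatin and -0.18 with vancomycin, a description over genes measured in the same libraries.

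**Figure D5:**
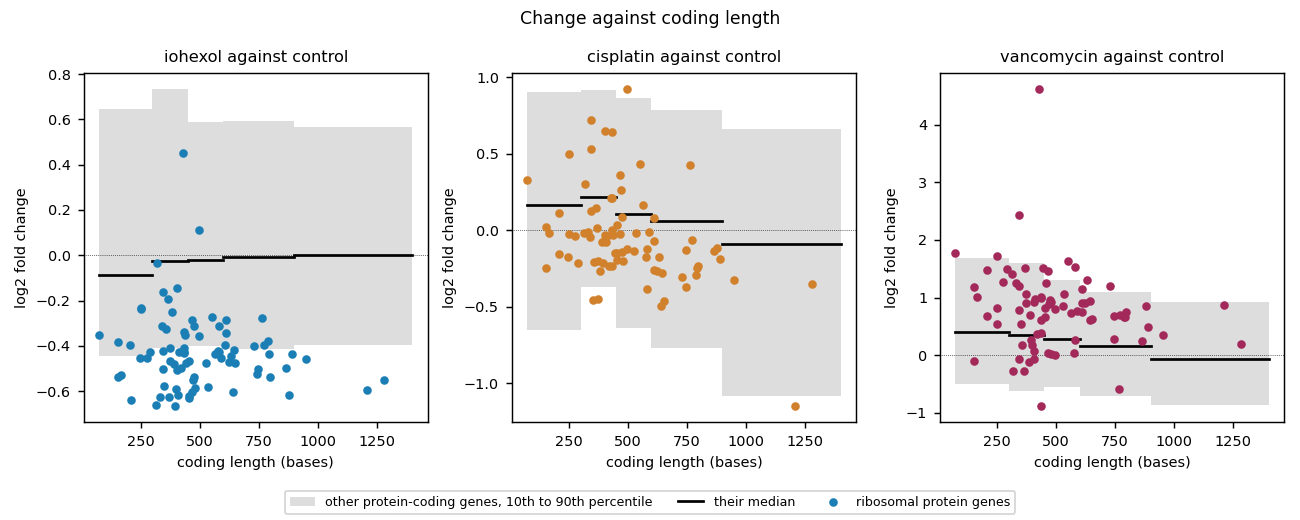
Log2 fold change of the members (points) against coding length in bases, in a panel for each drug, with the median and the range from the 10th to the 90th percentile of the other protein-coding genes in bins of coding length. The vancomycin points lie mostly above and the iohexol points mostly below the medians of other genes of the same length, and the cisplatin points lie near or below theirs, with a side of 0 that depends on the scaling.

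The GC content of the coding sequence was set beside the changes in the same way. With vancomycin the median of the members rose from 0.18 for 13 members under 45% GC to 1.00 for 11 members at 55% to 60% and was 0.85 for the 7 members above, while that of the other genes went from -0.25 to 0.22 and 0.25 in the same bins. Spearman's rho across the members was 0.37 with vancomycin, -0.04 with iohexol and 0.03 with cisplatin. The level in the controls per kb had a rho of -0.38 with the iohexol change, -0.39 with the cisplatin change and 0.01 with the vancomycin change. The members with a pyrimidine run at the 5′ end had medians of -0.45, -0.07 and 0.80 with iohexol, cisplatin and vancomycin (55 genes), and the tested members with an entry but no run -0.36, 0.03 and 0.75 (10 genes).

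Reads on exons that belong to more than 1 gene can be lost or assigned elsewhere in counting. In GENCODE 29, 10 members had over 30% of their coding bases under exons of other genes, among them RPL17, RPL22, RPL23A, RPL26, RPL30, RPL36A, RPS10, RPS15A and RPS23. Their level in the controls had a median of 6.58 CPM per kb, against 151 for the other 71 tested. Among these 10, 2 were lower and 1 higher with iohexol, 1 lower and 5 higher with cisplatin, and 1 lower and 5 higher with vancomycin. Among the other 71, 59 were lower and 0 higher with iohexol, 30 lower and 7 higher with cisplatin, and 1 lower and 60 higher with vancomycin. Over all genes tested, 9.77% were lower and 11.2% higher with iohexol, 30.6% and 29.2% with cisplatin and 28.8% and 29.0% with vancomycin. The medians of the 71 were -0.45, -0.13 and 0.80, and those of the 10 were -0.20, 0.33 and 0.39. The members also share sequence with processed pseudogenes. For the 42 members with under 50% of their coding 50-base sequences in other genes, the medians were -0.45, -0.07 and 0.84, and for the other 39 they were -0.43, -0.12 and 0.68.

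Other genes of ribosome function were taken from fixed lists, whose counts stand beside 9.77% of all genes lower and 11.2% higher with iohexol, 30.6% and 29.2% with cisplatin and 28.8% and 29.0% with vancomycin. Of 5 cytosolic ribosomal proteins with other symbols, such as FAU, RPSA and RACK1, 3 fell with iohexol and 0 rose. With cisplatin 3 rose and 2 fell, and with vancomycin all 5 rose. Their medians were -0.36, 0.22 and 0.71, where those of all genes tested were 0.01, 0.01 and -0.01. RPSA, of the small subunit, had log2 fold changes of -0.51 ± 0.08 with iohexol and -0.38 ± 0.05 with cisplatin. FAU, made as a fusion with a ubiquitin-like protein, had 0.44 ± 0.08 with cisplatin and 0.96 ± 0.10 with vancomycin, and RACK1, a scaffold on the small subunit, had -0.44 ± 0.05 with cisplatin. The next list held 16 other TOP transcripts tested, such as those of translation elongation factors, with RACK1 again among them. They gave 11 lower and 0 higher with iohexol, 11 lower and 2 higher with cisplatin, and 1 lower and 9 higher with vancomycin. Their medians were -0.30, -0.40 and 0.39, and with library size only 4 were lower with iohexol. TPT1 had -0.74 ± 0.07 with cisplatin and 0.94 ± 0.10 with vancomycin. HNRNPA1, a splicing regulator, had -0.53 ± 0.09 with iohexol and -0.70 ± 0.06 with cisplatin, and PABPC1, the poly(A) binding protein, was the gene that fell with vancomycin, with -0.63 ± 0.08.

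The 78 mitochondrial ribosomal proteins, which serve the ribosome of that organelle, gave 9 lower and 2 higher with iohexol, 8 lower and 43 higher with cisplatin and 17 lower and 36 higher with vancomycin. With iohexol the 9 lower were near the 9.77% of all genes. Their median log2 fold changes were -0.13, 0.28 and 0.24, against -0.44, -0.08 and 0.79 for the members. With library size only 60 of them were higher and 5 lower with cisplatin. MRPS6 had the largest rise with iohexol, 2.08 ± 0.10, and MRPL23 had falls of -0.88 ± 0.12 with iohexol and -1.05 ± 0.13 with cisplatin. MRPL38 and MRPL1 had 1.76 ± 0.25 and -1.17 ± 0.13 with cisplatin, and MRPL54 and MRPS10 had 1.29 ± 0.13 and -0.83 ± 0.10 with vancomycin. Of 50 genes of ribosome biogenesis, 13 were lower and 1 higher with iohexol, 4 lower and 35 higher with cisplatin and 20 lower and 13 higher with vancomycin, with medians of -0.20, 0.40 and -0.19. With vancomycin the 13 higher were near the 29.0% of all genes. NPM1, a chaperone of the nucleolus, had -0.53 ± 0.09 with iohexol, -0.56 ± 0.06 with cisplatin and -0.32 ± 0.09 with vancomycin. SBDS, which helps to release the large subunit for translation, had 0.35 ± 0.11 with iohexol, 1.09 ± 0.08 with cisplatin and 0.39 ± 0.10 with vancomycin. BYSL, of small subunit assembly, had 1.14 ± 0.08 with cisplatin. With vancomycin UTP20 and BOP1, both of nucleolar assembly, had -1.08 ± 0.10 and -0.87 ± 0.09, and NHP2, of the box H/ACA particles, had 0.97 ± 0.13.

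Of the 17 genes tested around MYC and mTORC1, 1 was lower and 1 higher with iohexol, 9 lower and 4 higher with cisplatin and 4 lower and 5 higher with vancomycin. The vancomycin counts were near the 28.8% of all genes lower and 29.0% higher. Their medians were 0.00, -0.23 and -0.02. With library size only the iohexol median was 0.07, and the cisplatin median was -0.01, with 5 lower and 6 higher. MYC, a transcription factor of growth, had -0.42 ± 0.08 with iohexol, -0.72 ± 0.05 with cisplatin and -0.95 ± 0.08 with vancomycin. DDIT4, an inhibitor of mTORC1, had -1.99 ± 0.08 with cisplatin, and RPTOR, a subunit of mTORC1, -0.96 ± 0.09. EIF4EBP1, a repressor of translation that mTORC1 inactivates, had 1.08 ± 0.12 with vancomycin. The genes named from these lists passed an edgeR adjusted p of 0.05.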

How the data were processed

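Poly(A)-selected RNA of 12 HK-2 samples was sequenced, with groups taken from the labels. The deposited values are the raw read counts of the authors for each gene, not normalized. The submitters' processing notes name CASAVA 1.8, fastp, HISAT2 2.0.5, featureCounts 1.5.0-p3 and DESeq2 1.20.0. The build, the strand setting and the treatment of reads with several hits are not given in the sources used here. The deposited positions and lengths matched GENCODE 29 (GRCh38) for 83 of 83 members, and 0 columns of per-sample values were left out.

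The test was edgeR 4.0.16 in R 4.3.3 (quasi-likelihood, TMM, filterByExpr with at least 10 counts and a total of 15), with Benjamini-Hochberg adjustment over all genes tested. A gene was called at an adjusted p under 0.05, with an absolute log2 fold change over 1 as a further limit. The SE is the log2 fold change divided by the square root of F, without its sign. Contrasts between drugs came from 1 fit over the 4 groups. The steps were run on simulated counts in which few genes changed, which does not test the scaling where many genes change.

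Members and gene lists were chosen with earlier results of these data known. Named in full were, for each drug, the 5 largest rises and 5 largest falls among the members called, a fixed set (stalk, 5S particle, RPS6, RPS27A, RPL13A, RPS18, RPS23 and pairs with close copies) and the 3 highest and 3 lowest levels per kb. From each list the 2 largest rises and 2 largest falls past the test were eligible for each drug. Some genes named from the lists also passed with a drug for which no value is given. A few eligible genes and 1 of the lists are not reported here. The alternatives were limma-voom 3.58.1, DESeq2 1.42.0, RLE factors, library size only, TMM without ribosomal and mitochondrial genes, no filter, 10 counts in every sample, a fit of all samples, the replicate number as a block, each sample left out, and members by unique exon sequence. Added after the data were seen were the exclusion of the libraries low in GC-rich genes, a subset by unique coding sequence, and the contrasts and lists with library size only.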

Additional observations from a re-analysis of the deposited data

Results flagged for a closer look

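The differences between the drugs were tested directly, as contrasts in the fit of all 12 samples, and the following results stood out because the effect of one drug on the members differed from that of another. Of the 81 members tested, 59 were higher and 1 lower with cisplatin than with iohexol (26.0% and 27.9% of all genes). With vancomycin 74 were higher and 2 lower than with iohexol (29.0% and 27.6% of all genes), and 69 were higher and 7 lower than with cisplatin (34.7% and 30.0%). Each drug enters a pair of these contrasts, so they are not independent of each other.

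RPS23, of the decoding centre, had the largest difference between vancomycin and cisplatin, 4.45 on the log2 scale. RPL3, near the peptidyl transferase centre, was higher with vancomycin than with cisplatin by 2.05. In the opposite direction, RPL26 differed by -1.05, RPL7L1 by -0.96 and RPS26 by -0.56 between vancomycin and cisplatin. RPS10 was higher with cisplatin than with iohexol by 0.83, at 59 to 78 counts against 28 to 44. Groups of 3 samples are too small for the test of single samples that lie apart from their group, which was not run.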

How the results depend on the processing

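Across the alternatives, 222 values of results over all members stayed close to those reported, 16 moved and 1 changed sign. For single members 1113 of 1226 values kept their direction and their side of the threshold. With the sign kept, 71 no longer passed it and 16 newly passed it, and 26 values changed sign. Those that changed sign are counted only there, also where a call was lost or gained. The single member higher with iohexol became 0 with RLE factors, with TMM without ribosomal and mitochondrial genes, with limma-voom, without a filter and with the replicate block. Leaving out each sample in turn left fewer samples in each fit. With iohexol this gave 0 to 1 members higher, 35 to 67 lower and 35 to 68 called in all. With cisplatin 10 to 13 were higher, 23 to 42 lower, 34 to 55 called in all and 1 to 2 past the fold limit. With vancomycin 60 to 67 were higher and 2 to 4 lower.

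With library size only, cisplatin gave 34 members higher and 8 lower and a median of 0.14. The values that changed sign with cisplatin were, with library size only, 0.20 for RPL11, 0.029 for RPL5, 0.088 for RPL7, 0.17 for RPLP1, 0.024 for RPS18, 0.19 for RPS27 and 0.20 for RPS27A. Of these, RPL11, RPLP1 and RPS27A passed as higher, and RPL5, RPL7 and RPS18 had been called lower. With 10 counts in every sample they were 0.0071 for RPL11, 0.0023 for RPS27 and 0.0053 for RPS27A, and without a filter -0.0014 for RPL39. With vancomycin RPS27A was -0.030 with library size only. Leaving out each sample gave -0.36 to 0.011 for RPL22L1 with iohexol, -0.11 to 0.033 for RPL11, -0.011 to 0.35 for RPL22L1, -0.15 to 0.14 for RPL39, -0.17 to 0.088 for RPS27 and -0.085 to 0.028 for RPS27A with cisplatin, and -0.045 to 0.11 for RPS27A with vancomycin. With library size only the iohexol calls of RPL13A, RPL39L and RPL7L1 and the vancomycin call of RPL7 were also lost. The cause was not tested, beyond the common shift of all genes that the scaling itself sets.

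The replicate numbers are shared by the groups. Samples with the same number deviated together with r of -0.30 to 0.14. Of the 9 drug samples, 5 correlated best with the control of their own number, 3 with cisplatin, 2 with vancomycin and 0 with iohexol. Whether the numbers mark pairs cannot be told from these values. With the replicate block 53 members were lower and 0 higher with iohexol, 36 lower and 13 higher with cisplatin and 2 lower and 68 higher with vancomycin. The limit on unique exon sequence kept all 81 members and so changed nothing. Depth limits RPL3L and RPL10L, which could not be tested, and RPS10 and RPL17, which rest on few counts.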

Other observations

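The processed pseudogenes of the ribosomal proteins, which share their sequence, were counted as genes of their own. Of 1070 such genes, 66 to 73 passed the filter in a comparison. With iohexol 15 were lower and 2 higher, with cisplatin 9 lower and 14 higher and with vancomycin 8 lower and 43 higher, with median log2 fold changes of -0.40, -0.10 and 0.81. Over all genes tested the shares were 9.77% and 11.2%, 30.6% and 29.2%, and 28.8% and 29.0%. RPL3P4, the copy of RPL3, had -0.64, -1.26 and 0.98 with iohexol, cisplatin and vancomycin, where RPL3 had -0.60, -1.15 and 0.86. Which of these reads came from the parent genes cannot be told apart from the counts.

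Across the 12 samples and 14699 genes over 1 CPM on average, the genes whose log2 CPM was most like that of RPS23 were TMBIM1 and CRABP2 (Pearson r = 0.993), AMPD3 (0.991), FTL (0.990) and EEF1A1P5 (0.990), none of them a ribosomal protein gene. Of the members, 25 of 81 had an r over 0.9 with RPS23, while 59 of 81 had an r over 0.9 with the median of the members. The share of all genes over 0.9 was not counted, so neither count has a background. The members themselves also enter the median of the members. RPS14 (0.995) and RPL11 (0.994) were among the closest to that median, as were, outside the members, HSPB1 and CDKN2A (0.993). With 4 groups of 3 samples these values mostly reflect the order of the groups and are a description.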
